A study of Drosophila melanogaster with 18 samples.

Results

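CG34227, trynity (tyn, CG17131), CG17707 and RhoGAP1A (CG40494) are 4 protein-coding genes, of 13439 in the table, that lie outside the Y chromosome and were chosen by their normalized reads, which were higher in male than in female fly brains in these same libraries. The comparison between the sexes is therefore given here as a description without a test. Changes with age within a sex were tested, but the libraries that chose the genes also enter those tests. Their p values are therefore not independent of the choice, as for CG34227, whose difference between the sexes was largest at 14 days. Brains of unmated Oregon flies, a wild-type laboratory strain, were taken at 3, 7 and 14 days after eclosion from females (F3, F7 and F14) and males (M3, M7 and M14), with no other genotype and no treatment in any group. Each library was made from 100 brains pooled before extraction, so a value is an average over many flies. There were 3 libraries in each of F3, M3, M7 and M14 and 2 in each of F7 (replicates 1 and 2) and F14 (replicates 2 and 3), that is 7 female and 9 male libraries.

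RhoGAP1A belongs to the RhoGAP family, whose proteins are GTPase-activating proteins, which switch off small GTPases by speeding up the hydrolysis of their bound GTP. The protein made by tyn carries a zona pellucida (ZP) domain, a module with which proteins assemble into the extracellular matrix at the apical side of epithelia, such as the lining of the tracheal tubes and the cuticle. CG17707 and CG34227 have no function assigned in the sources used here. In flies, males carry a single X chromosome, and the dosage compensation complex raises the output of most of its genes in males, so that X-linked genes as a class are expressed at similar levels in both sexes.

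The X-linked genes, 3 of the 4, formed a row near the start of the X chromosome on release 6 of the genome (annotation BDGP6.54). RhoGAP1A spans X:127449-140340 on the plus strand, with 6068 exonic bases in 15 exon blocks. It is followed by tyn at X:140318-200663, also on the plus strand, with 5691 exonic bases in 12 blocks. CG17707 lies at X:142731-148426 on the minus strand, with 3791 exonic bases in 11 blocks, entirely within the span of tyn. Neighbours in this row share exonic sequence. RhoGAP1A and tyn overlap by 23 exonic bases on the same strand, while tyn and CG17707 share 635 exonic bases on opposite strands, which is 11.2% of the exonic bases of tyn and 16.8% of those of CG17707. The library kit does not mark strand, so reads from those 635 bases could not be assigned to tyn or to CG17707 by their direction. RhoGAP1A and CG17707 share no exonic base and lie 2390 bases apart. CG34227 stands alone at 2R:11248126-11248610 on chromosome arm 2R, on the plus strand, as a single-exon gene of 485 bases.

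Libraries held 2924715 to 8664494 reads, and all 4 genes passed the filter of a mean of at least 5 normalized reads that left 12448 genes for testing. The neuronal markers elav, nSyb, brp, Syt1 and para were high in every group, with a summed level of 14211 to 104611 normalized reads, and the glial markers summed to 3242 to 23214. Photoreceptor markers were also present, at 3086 to 59378. The 12 listed Y-linked genes summed to 0 to 8.77 in females and 25.5 to 726 in males, in the direction of the labels. Replicate 1 of M14 stood apart, with the fewest reads, the lowest neuronal sum (14211) and the highest median over 57 gustatory receptors (43.6 normalized reads, against 0 to 21.3 in the other 15 libraries), which are scarce transcripts used here as a measure of background. Replicate 2 of F7 had the lower neuronal sum of its group (48590, against 104611 in replicate 1) and the higher gustatory median (15.9 against 5.41). Values without these libraries are given beside the results they moved most.

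CG34227 had the fewest normalized reads of the 4 genes in females and, per length, was the most abundant in the oldest males. In normalized reads, which are reads divided by a factor for the depth of the library, F3 had 7.85, 35.1 and 9.73, F7 had 35.2 and 12.0, and F14 had 32.2 and 18.7. M3 had 18.3, 44.4 and 63.9, M7 had 99.1, 97.8 and 147, and M14 had 1238, 637 and 782. Female libraries thus held at most 35.2 normalized reads at every age, while male libraries stood higher at each later age with no overlap between M3, M7 and M14. These female values rest on 7 to 39 reads per library, and those of M14 on 509 to 1128. In order of the group means, M14 (885.6 ± 313.6, SD, n = 3) came before M7 (114 ± 27.8, n = 3), M3 (42.2 ± 22.9, n = 3), F14 (25.5 ± 9.54, n = 2), F7 (23.6 ± 16.4, n = 2) and F3 (17.6 ± 15.2, n = 3), and the ranges of the last 4 overlapped.

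The ratio of male to female means of CG34227 was 2.40 at 3 days, 4.86 at 7 days and 34.8 at 14 days. On the log2 scale after adding 1, females minus males came to −1.35 (SE 0.57), −2.39 (SE 0.64) and −5.06 (SE 0.64) at these ages, beside medians over all genes tested of −0.12, 0.09 and −0.12. At 3 days the sexes overlapped, with the male above the female library in 8 of 9 pairs. At 7 and 14 days every male library was above every female library. The difference at 7 days was −3.13 without replicate 1 of F7 and −1.65 without replicate 2. Quantile normalization moved the difference at 3 days to −0.45 and that at 14 days to −6.04.

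Expression of tyn was higher in every male library than in every female library. F3 had 221, 338 and 515 normalized reads, F7 had 215 and 545, and F14 had 342 and 337. M3 had 947, 886 and 981, M7 had 797, 750.5 and 754, and M14 had 624, 604 and 654. The highest female value, in replicate 2 of F7, was 545 and the lowest male value, in replicate 2 of M14, was 604. The order of the means was M3 (938 ± 48.1, n = 3), M7 (767 ± 25.8, n = 3), M14 (628 ± 25.2, n = 3), F7 (380.1 ± 233.9, n = 2), F3 (358 ± 148, n = 3) and F14 (339 ± 3.29, n = 2). The 3 male groups did not overlap with each other, whereas the 3 female groups did.

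For tyn the ratio of male to female means was 2.62 at 3 days, 2.02 at 7 days and 1.85 at 14 days, or −1.47 (SE 0.30), −1.16 (SE 0.33) and −0.88 (SE 0.33) as log2 differences of females minus males. The value at 7 days depended on the libraries of F7 and was −0.49 without replicate 1 and −1.83 without replicate 2. Of the 12448 genes tested, 13 had all 9 male libraries above all 7 female libraries (0.104%), and tyn was the only member among them. Of those 13 genes, 4 are on the Y chromosome and 2 on the X chromosome, tyn and the cytochrome P450 gene Cyp4d2, whose log2 difference averaged over ages was −1.14 beside −1.17 for tyn. In the opposite direction 35 genes (0.281%) had all females above all males.

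CG17707 was higher in males at 3 days and not at 14 days. F3 had 21.3, 38.6 and 90.8 normalized reads, F7 had 43.3 and 125, and F14 had 84.0 and 96.1. M3 had 238, 145 and 123, M7 had 83.1, 141 and 137, and M14 had 108, 85.1 and 61.0. Male values were lower at the later ages and F3 held the lowest female values, so that the sexes met at 14 days. The group means ran from M3 (169 ± 60.9, n = 3) through M7 (120.3 ± 32.3, n = 3), F14 (90.1 ± 8.58, n = 2), M14 (84.6 ± 23.4, n = 3) and F7 (84.2 ± 57.9, n = 2) to F3 (50.2 ± 36.2, n = 3), and every group overlapped with the next in this order. The male to female ratio of means was 3.36, 1.43 and 0.940 at 3, 7 and 14 days, and the log2 differences of females minus males were −1.92 (SE 0.49), −0.66 (SE 0.54) and 0.12 (SE 0.54). The value at 7 days changed sign with the library left out, from −1.41 without replicate 2 of F7 to 0.10 without replicate 1. At 14 days males were above females in 3 of 6 pairs.

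RhoGAP1A was the most abundant of the 4 genes in normalized reads and showed the smallest difference between the sexes at 3 days. F3 had 976, 866 and 1702 normalized reads, F7 had 733 and 1316, and F14 had 950.3 and 878. M3 had 2110.0, 2046 and 1859, M7 had 1834, 1361 and 1556, and M14 had 415, 1149 and 1267. All males were above all females at 3 and at 7 days, the latter by a narrow margin (1361 against 1316), and at 14 days in 4 of 6 pairs. Replicate 1 of M14, the library that stood apart, gave the lowest value of all 16 libraries. The means were 2005 ± 130.5 in M3, 1584 ± 237 in M7 and 944 ± 461 in M14 (n = 3 each), and 1181 ± 454 in F3 (n = 3), 1025 ± 412 in F7 and 914 ± 51.4 in F14 (n = 2 each). M3 and M7 did not overlap, while every other group overlapped with its neighbour in the order of the means. Ratios of male to female means were 1.70, 1.55 and 1.03 at 3, 7 and 14 days, and the log2 differences of females minus males were −0.83 (SE 0.36), −0.68 (SE 0.40) and 0.11 (SE 0.40). The value at 7 days was −0.26 without replicate 1 of F7 and −1.10 without replicate 2. That at 14 days was −0.40 without replicate 1 of M14.

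The name of male-higher genes therefore held in the means at all 3 ages for CG34227, tyn and RhoGAP1A. For CG17707 it held at 3 and 7 days. At 14 days the ratio of male to female means was 0.940 for CG17707 and 1.03 for RhoGAP1A, and the sexes overlapped for both. The log2 difference of RhoGAP1A at that age, 0.11, had the sign of higher females. The male libraries did not overlap with the female libraries for 3 of the 4 genes at 3 days (17.4% of all genes tested), for 3 at 7 days (12%) and for 2 at 14 days (16.9%), counts that the choice of the genes had used. Ranked by the mean log2 difference over the ages among 12440 genes tested outside the Y chromosome, CG34227 was in place 4, tyn in place 545, CG17707 in place 1382 and RhoGAP1A in place 2722.

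**Figure D1:**
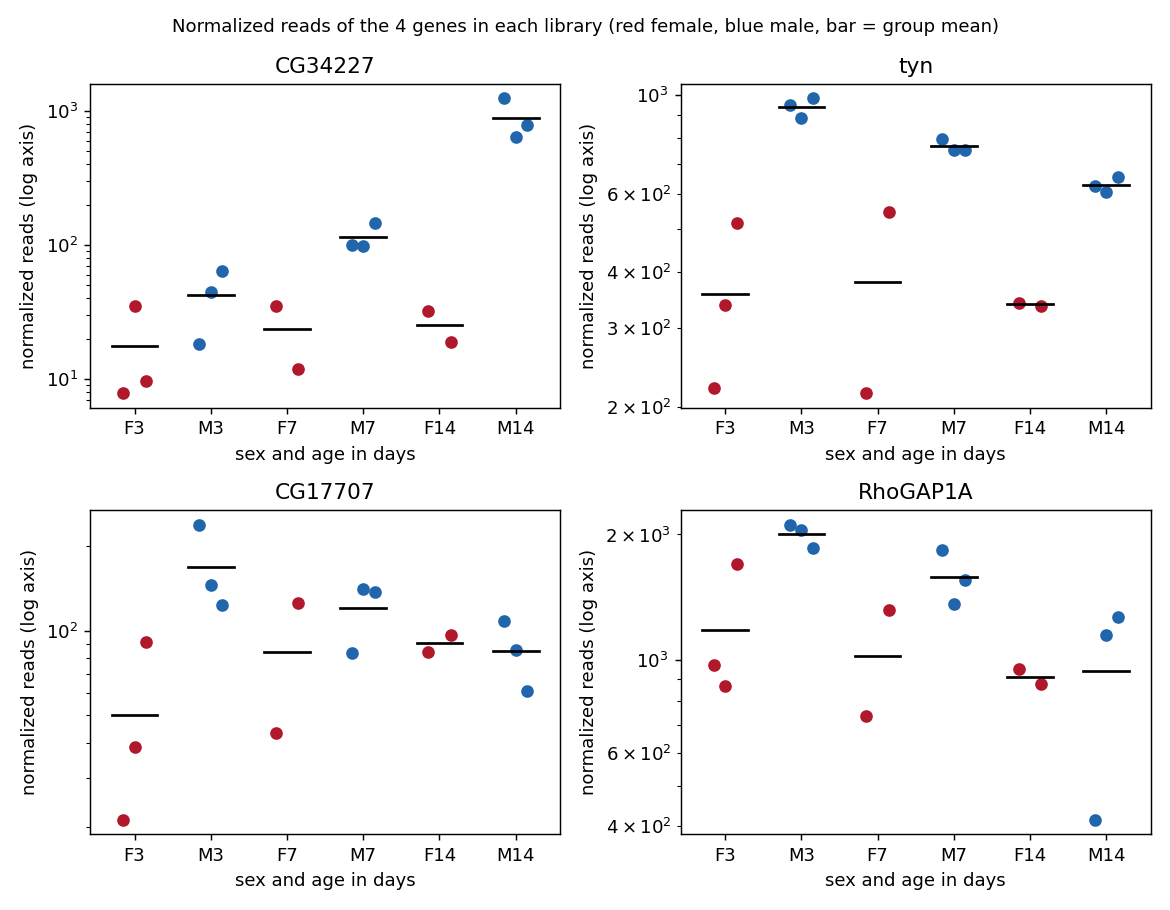
Normalized reads of CG34227, tyn, CG17707 and RhoGAP1A in each library (points, red for females and blue for males) by sex and age in days, on a log axis, with the group mean as a bar. For CG34227 the 3 libraries of M14 sit between 637 and 1238, above all others, and for tyn all male libraries (604 to 981) sit above all female libraries (215 to 545).

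Levels can be compared between genes per kilobase of exon. In F3 the means were 36.2 normalized reads per kilobase for CG34227, 63.0 for tyn, 13.2 for CG17707 and 195 for RhoGAP1A. In M14 they were 1826 for CG34227, 110.3 for tyn, 22.3 for CG17707 and 155.5 for RhoGAP1A. The level of CG34227 per kilobase was thus between those of CG17707 and tyn in the youngest females and above the other 3 in the oldest males, while CG17707 was the lowest per kilobase in both groups.

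In males, CG34227 was called higher and RhoGAP1A lower in M14 than in M3, the latter in only some of the settings. CG34227 rose from M3 to M14 by 4.47 on the log2 scale (SE 0.57, limma adjusted p = 0.0022), with a ratio of means of 21.0, while 6.09% of all genes tested rose. This call held in all 30 alternative settings, with limma, edgeR or DESeq2 adjusted p between 1.7e-13 and 0.025. Without replicate 1 of M14, 1 gene rose and 14 fell from M3 to M14 among 12232 genes tested, and the gene that rose was CG34227 (4.20, SE 0.64, limma adjusted p = 0.017). From M7 to M14 it rose by 2.91 (SE 0.57, limma adjusted p = 0.076), a ratio of means of 7.74, in a comparison in which 14.7% of genes rose. That second call was lost in 9 of 30 settings (adjusted p over all settings 4.3e-05 to 0.417), among them limma fits without replicate 1 of M14 (adjusted p = 0.417), without replicate 2 of M14 (0.114), without replicate 1 of M7 (0.304) and without replicate 2 of M7 (0.174), although the estimate stayed between 2.64 and 3.12 when any library was left out. From M3 to M7 the difference was 1.56 (SE 0.57), with all 3 older libraries above all 3 younger libraries, and it did not pass (limma adjusted p = 1.00), in a comparison with 0.193% of genes called.

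RhoGAP1A fell from M3 to M14, with a log2 change of −1.24 (SE 0.36, limma adjusted p = 0.080), a ratio of means of 0.471, while 5.43% of genes fell. The call was lost in 14 of 30 settings, with adjusted p from 0.024 to 0.412. Without replicate 1 of M14 the difference was −0.73 (limma adjusted p = 0.412), and the call was also lost without replicate 2 of M14 (0.110), replicate 2 of M3 (0.263), replicate 3 of M3 (0.176), replicate 2 of M7 (0.106) and either library of F14 (0.103 each). From M7 to M14 the difference was −0.89 (SE 0.36) and just missed the threshold of 0.1 (limma adjusted p = 0.1005, 0.037 to 0.526 over the settings, 7 of which gave a call). The difference was −0.38 without replicate 1 of M14. All 3 libraries of M14 were below all 3 of M7, and those below all 3 of M3. Values without overlap and lower in the older males were found for 6.16% of all genes from 3 to 7 days and 14.3% from 7 to 14 days, and values higher in the older males, as for CG34227, for 5.23%, 21.3% and 20.3% from 3 to 7, 7 to 14 and 3 to 14 days.

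The X-linked neighbours of RhoGAP1A also had lower means in older males, but neither passed. For tyn the difference from M3 to M14 was −0.58 (SE 0.30, limma adjusted p = 0.19), with a ratio of means of 0.669. For CG17707 it was −0.97 (SE 0.49, limma adjusted p = 0.18), with a ratio of means of 0.501, and under quantile normalization alone it passed (−1.45, limma adjusted p = 0.097, with 0.097 to 0.475 over the settings). For tyn, CG17707 and RhoGAP1A every M14 library was below every M3 library, which was so for 13% of all genes tested. The median change of all genes from M3 to M14 was 0.24.

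In all, 3 of 12 age comparisons of the 4 genes passed in males with limma, 3 with DESeq2 and 1 with edgeR. Limma called 0.193% of all genes from 3 to 7 days and 21.2% from 7 to 14 days. From 3 to 14 days 6.09% rose and 5.43% fell. Of the 12 comparisons, 5 had an unadjusted p under 0.05 in limma (3%, 34.8% and 30.2% of all genes from 3 to 7, 7 to 14 and 3 to 14 days). In females none of 12 passed with limma, DESeq2 or edgeR, and none had an unadjusted p under 0.05 in limma, as 19.7%, 2.21% and 30.6% of all genes had over the same intervals. Of all genes tested, 21.7% were called between F3 and F14, 7.67% between F3 and F7 and 0% between F7 and F14. For 4 genes, the absence of a call is not far from these shares. The largest female difference was that of CG17707 from F3 to F14, at 1.07 (SE 0.54, limma adjusted p = 0.19), opposite in sign to its difference in males. It passed without replicate 3 of F3 (1.61, limma adjusted p = 0.047), and the adjusted p ranged from 0.027 to 0.662 over the settings. For tyn the difference from F3 to F7 was 0.02 (SE 0.33), an average over unlike libraries of F7, and it was 0.69 without replicate 1 of F7 and −0.65 without replicate 2. From F7 to F14 it was −0.01 with all libraries, −0.68 without replicate 1 of F7 and 0.66 without replicate 2. From F3 to F14 it was 0.01 (SE 0.33), and −0.30 to 0.31 with single libraries left out.

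The difference between the sexes in the age change contains the sex differences that chose the genes, so it is given without a test. For CG34227 from 3 to 14 days the change in females minus that in males was −3.71 (SE 0.86) on the log2 scale. For CG17707 over the same ages it was 2.04 (SE 0.73), for RhoGAP1A 0.94 (SE 0.53) and for tyn 0.59 (SE 0.45).

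**Figure D2:**
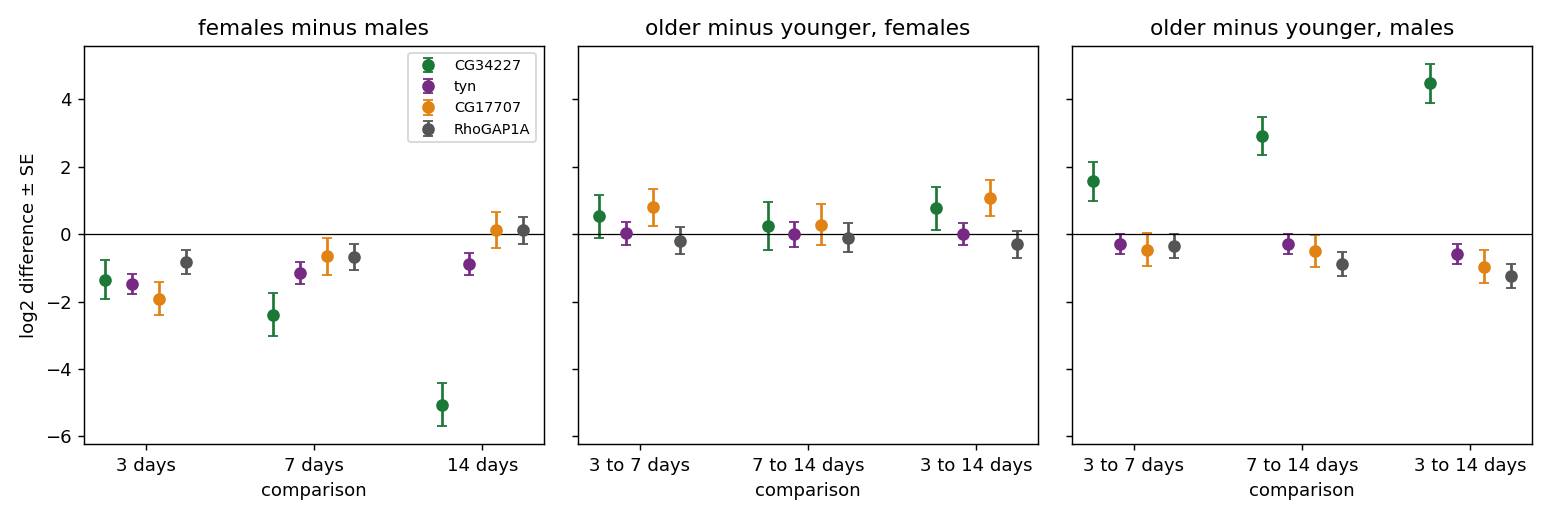
Log2 differences of the 4 genes with standard errors, as females minus males at each age (left), older minus younger in females (middle) and older minus younger in males (right). CG34227 moves from −1.35 to −5.06 between the sexes and reaches 4.47 from 3 to 14 days in males, whereas the points of the female panel all lie between −0.31 and 1.07.

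Markers of other cells and of background were read in the same libraries. Between M7 and M14, where CG34227 rose, 3 of 7 tested Y-linked genes and 1 of 6 genes of the testis germ line list also rose, beside 14.7% of all genes, and none of these lists' genes passed between M3 and M14. The summed level of the Y-linked genes was 111 to 266 in M3, 25.5 to 216 in M7 and 238 to 726 in M14, and among them PRY, Pp1-Y1 and Ppr-Y were at 0 in every female library. The testis list without bol, a gene expressed in all these brains, summed to 44.4 to 140 in M3, 26.4 to 124 in M7, 107 to 372 in M14 and 16.8 to 94.1 in females. With bol, whose level was far above the other 5, the list summed to 5310 to 6794 in M3, 5395 to 5833 in M7, 2631 to 5889 in M14 and 3435 to 14437 in females. The neuronal sum was 59649 to 67857 in M3, 46682 to 53266 in M7 and 14211 to 42012 in M14, with none of its 5 genes passing the test. The glial sum was 7414 to 8070 in M3 and 3495 to 3565 in M14, and 2 of its 5 genes fell between them. Muscle markers summed to 3571 to 9838 in M3 and 1760 to 2305 in M14, and 4 of 5 fell. Of the retina markers 2 of 5 fell (16498 to 29021 in M3, 6279 to 14635 in M14), and of the fat body markers 2 of 5 rose (sums of 4348 to 4832 and 3913 to 4807), in a comparison in which 5.43% of all genes fell and 6.09% rose. None of these marker calls was left without replicate 1 of M14, nor was that of any other list from M7 to M14, where no gene of the 12232 passed. The median over the gustatory receptors was 7.39 to 11.6 in M3, 2.83 to 12.0 in M7 and 11.8 to 43.6 in M14. The part of these in the changes of CG34227 and RhoGAP1A was not tested. In pooled tissue, fewer cells of a type and less RNA per cell cannot be told apart.

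Since 3 of the genes lie together, the genes around them were compared between the sexes. At the end of the X chromosome 11 other genes with values were tested, CG17636 before RhoGAP1A and 10 after tyn. None was called between the sexes at 3, 7 or 14 days in either direction in limma, where 3.04%, 0.0482% and 0.273% of all genes were higher in females and 8.34%, 0.00803% and 0.0562% were higher in males. At an unadjusted p under 0.05, 2 were higher in females at 3 days, 1 at 7 days and 1 at 14 days, and none was higher in males at any age. Among all genes 7.36%, 4.43% and 4.43% were higher in females by that measure and 15.9%, 3.11% and 2.69% higher in males. DESeq2 called 1 higher in females at 3 days and edgeR none. Their median log2 differences of females minus males were −0.01, 0.31 and 0.54 at the 3 ages. The nearest gene on the side of RhoGAP1A, CG17636, differed by −1.05 (SE 1.22) at 3 days. On the side of tyn, CG3038 differed by 0.37 (SE 1.00) and G9a, which encodes a histone methyltransferase, by −0.11 (SE 0.23). G9a had 430 to 805 normalized reads in females and 362 to 725 in males, so the ranges of the sexes overlapped.

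**Figure D3:**
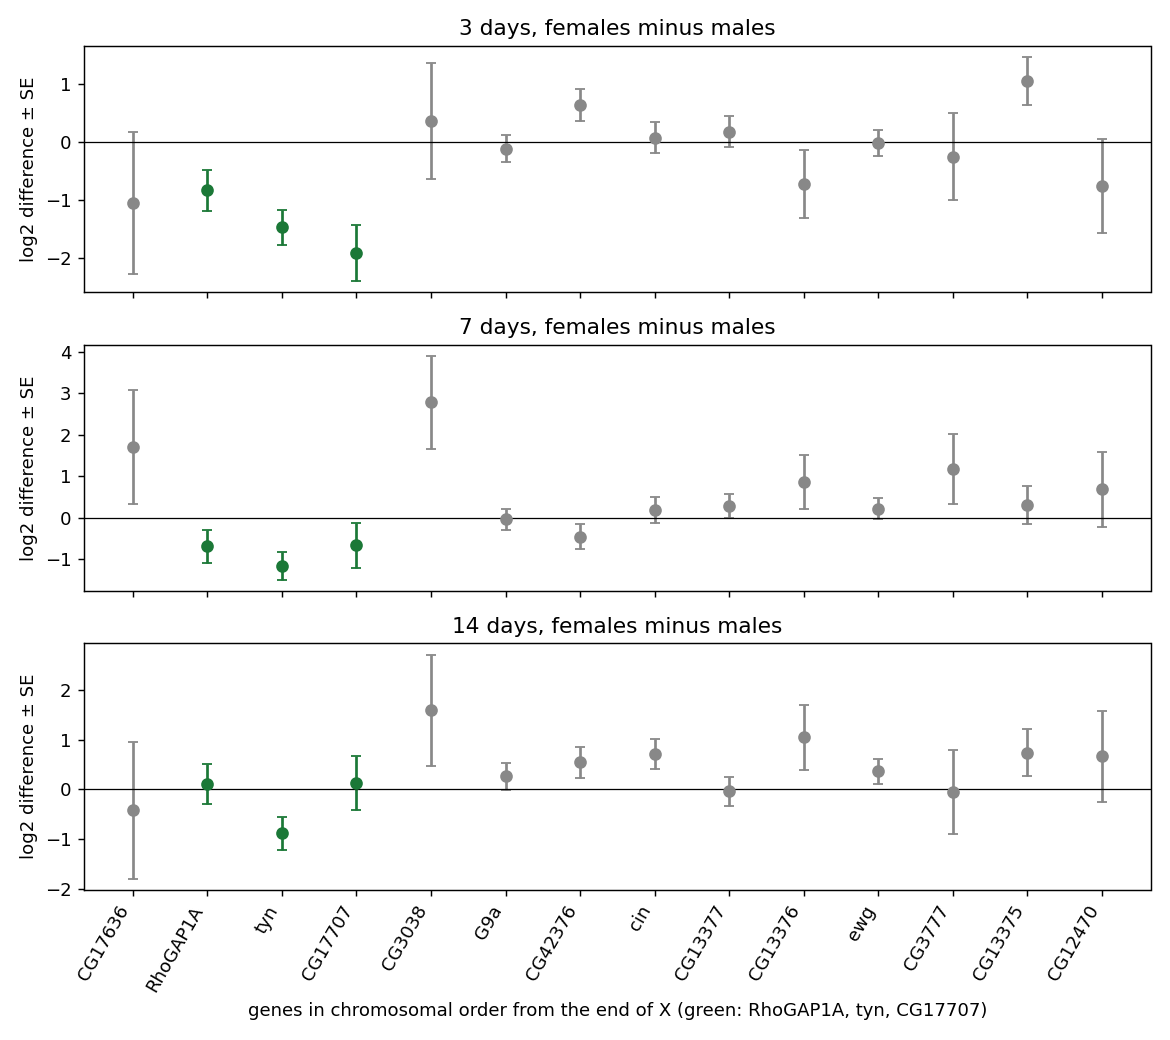
Log2 difference of females minus males with its standard error for RhoGAP1A, tyn and CG17707 (green) and the 11 other tested genes at the end of the X chromosome (grey), in chromosomal order, at 3, 7 and 14 days. At 3 days the green points lie between −1.92 and −0.83 while the grey points lie on both sides of 0 around a median of −0.01.

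Around CG34227, 20 genes on chromosome arm 2R had values and 15 were tested, the other 5 having means under 5. The nearest on both sides were hardly expressed, with means of 2.11 for CG13226, 1.64 for CG34225 and 0.868 normalized reads for CG43112, while Or47a, an odorant receptor gene, had a mean of 19.0. Its difference of females minus males was 0.44 (SE 0.94, limma adjusted p = 0.81) at 3 days. Between the sexes 2 of the 15 passed at 3 days, both higher in males, as were 8.34% of all genes. They were Cpr47Ec (−3.14, SE 0.81, limma adjusted p = 0.031) and Cpr47Ed (−3.95, SE 0.66, limma adjusted p = 0.0050), which encode cuticle proteins. None passed at 7 or 14 days. At unadjusted p under 0.05 these counts were 1 at 7 days and 0 at 14 days. The gene at 7 days was Or47a (2.71, higher in females, as were 4.43% of all genes). DESeq2 and edgeR called none at either age. The median log2 differences of females minus males over the 15 genes were −1.18, 1.07 and −0.95 at 3, 7 and 14 days. For all genes tested they were −0.12, 0.09 and −0.12. Differences below 0 were found for 12, 2 and 14 of the 15 at these ages. Without replicate 1 of M14 the median at 14 days was −0.40 over 12 tested genes. In males from 7 to 14 days, where CG34227 rose, 6 of these 15 genes rose and 1 fell, beside 21.2% of all genes called in either direction. Without replicate 1 of M14, 12 of them were tested and none passed.

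The ratio of 2 genes within a library does not depend on the depth of that library. The ratio of RhoGAP1A to tyn was 2.41 to 4.42 in females (median 2.78, n = 7) and 0.666 to 2.31 in males (median 1.94, n = 9), and the sexes did not overlap. By group the ratio was 3.43 ± 0.935 in F3, 2.91 ± 0.710 in F7 and 2.69 ± 0.125 in F14, and 2.14 ± 0.220 in M3, 2.06 ± 0.244 in M7. In M14 it was 1.94 at most and 0.666 in replicate 1, the lowest of all libraries. The difference between females and males was therefore unequal for these adjacent genes on the same strand, being larger for tyn. For CG17707 and tyn, which share exonic bases, the ratio was 0.0964 to 0.285 in females and 0.0932 to 0.251 in males, with overlap between the sexes over all ages and at 3 days. At 7 and 14 days every female ratio was above every male ratio. It was 0.129 ± 0.0419 in F3, 0.216 ± 0.0197 in F7 and 0.265 ± 0.0279 in F14, with no overlap between these groups, and 0.180 ± 0.0644, 0.158 ± 0.0465 and 0.136 ± 0.0400 in M3, M7 and M14. These ratios are descriptions, since the same reads chose the genes.

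**Figure D4:**
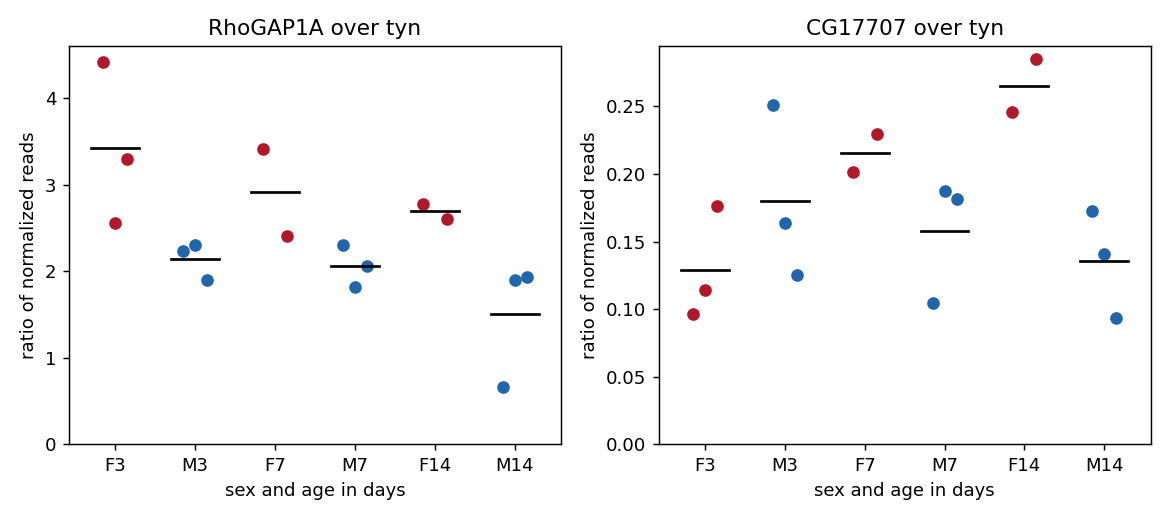
Ratio of normalized reads of RhoGAP1A over tyn (left) and of CG17707 over tyn (right) in each library (red for females, blue for males) by sex and age in days, with the group mean as a bar. The left panel separates the sexes (2.41 to 4.42 in females, 0.666 to 2.31 in males) and the right panel shows overlap at 3 days only.

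How the genes varied together was examined within each sex, as a relation over both sexes would only restate the difference that chose them. There were 12 relations, 6 pairs in each sex. In the 7 female libraries tyn and CG17707 had Pearson's r = 0.81 (exact permutation p = 0.041, adjusted over 12 relations 0.083) and a Spearman rank correlation of 0.64 (exact permutation p = 0.14, adjusted 0.20). Without the 2 libraries farthest from the median of tyn, both of F7, r was 0.77, and after the age means were removed r was 0.97. The exons of tyn and CG17707 share 635 bases, and the part of reads from those bases in this r was not tested. For tyn and RhoGAP1A in females r was 0.81 (exact permutation p = 0.034, adjusted 0.081) and the Spearman rank correlation 0.71 (exact permutation p = 0.088, adjusted 0.15), with r = 0.69 without the same libraries and 0.87 after the age means were removed. For CG34227 and RhoGAP1A in females r was −0.69 (exact permutation p = 0.089, adjusted 0.13) and the Spearman rank correlation −0.86 (exact permutation p = 0.024, adjusted 0.057). Both relations of tyn in females passed the threshold of 0.1 by r and not by rank, and neither passed 0.05. In males the libraries fell into separate groups by age for tyn and for CG34227, so no r of these relations over all 9 is given, and within an age there were 3 libraries. After the age means were removed, r in males was 0.16 for tyn and RhoGAP1A, −0.48 for tyn and CG17707 and −0.49 for CG34227 and RhoGAP1A.

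The genes most like each of the 4 were taken by Pearson's r of log2 values over all 16 libraries, as a description in which depth, sex and age are shared by the points. For CG34227 they were CG41561 (r = 0.891), PRY (0.870) and Pp1-Y1 (0.843), of which the latter pair is Y-linked, and CG30036 (0.831). CG41561, placed near the centromere of chromosome 3, was at 0 in all 7 female libraries and at 1.66 to 31.3 normalized reads in males. PRY and Pp1-Y1 were likewise at 0 in all female libraries and reached 32.5 and 31.3 in males, so these are likenesses to very low values. CG30036, on 2R, had 39.2 to 71.9 in females and 36.6 to 196 in males, and its r with CG34227 was 0.435 within females. Within males r was 0.955, but the male libraries fell into separate groups by age for CG34227, so this value includes the age difference.

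For tyn the most like genes were CG6454 (r = 0.934), DIP-theta (0.920), Shawl (0.871) and CngB (0.863), none of them on the X chromosome. DIP-theta encodes an immunoglobulin-domain protein of the neuronal surface and Shawl a voltage-gated potassium channel. CG17707 took place 42 in this list (r = 0.803) and RhoGAP1A place 409 (r = 0.624). All 4 of the most like genes were at their lowest male value in replicate 1 of M14, where tyn itself was not.

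For CG17707 the list was CG14710 (r = 0.872), tadr (0.867), ItgaPS5 (0.842) and CG43102 (0.841), with tyn in place 14. ItgaPS5, an integrin alpha subunit, had r = 0.992 within females and 0.208 within males. For RhoGAP1A the list was Ranbp16 (r = 0.982), CG11099 (0.958), Diap2 (0.958) and Arglu1 (0.954), with tyn in place 1189. Ranbp16, a nuclear transport receptor, is on the X chromosome at X:15927185-15933867, far from RhoGAP1A, and Diap2 encodes an inhibitor of apoptosis. These 4 genes also had their lowest male value in replicate 1 of M14, as RhoGAP1A did.

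The relatives of tyn and RhoGAP1A were read in the same fit. Of 13 other ZP-domain genes tested, 1 was higher in males at 3 days (8.34% of all genes), mey (−3.94, SE 0.81, limma adjusted p = 0.012). None passed at 7 or 14 days. At an unadjusted p under 0.05, 6 of 13 were higher in males at 3 days (15.9% of all genes). By that measure 1 was higher in females at 7 days (4.43%) and 1 higher in males at 14 days (2.69%). The median log2 differences of females minus males over the 13 were −1.40, 0.75 and −0.63 at 3, 7 and 14 days. They were −1.47, −1.16 and −0.88 for tyn, and −0.12, 0.09 and −0.12 for all genes tested. Differences below 0 were found for 10, 1 and 12 of the 13. Without replicate 1 of M14 the median of the 13 at 14 days was −0.09. From F3 to F14, 8 of the 13 rose and 1 fell, where 17.1% of all genes rose and 4.61% fell. Among these, mey rose by 4.45 (SE 0.90, limma adjusted p = 0.0087) and dy, needed for the shape of wing cells, by 3.49 (SE 0.80, limma adjusted p = 0.012), while pio, a ZP protein of tracheal tubes, fell by 1.41 (SE 0.43, limma adjusted p = 0.041). From M7 to M14 6 of the 13 rose (14.7% of all genes) and none fell, including dpy, which encodes a giant matrix protein (1.93, SE 0.50), and nompA, which links sensory dendrites to the cuticle (2.54, SE 0.61), both with limma adjusted p = 0.076. From M3 to M14 1 rose (6.09% of all genes), nompA (2.25, SE 0.61, limma adjusted p = 0.079). The median of the 13 was 1.40 in that comparison, beside −0.58 for tyn and 0.24 for all genes. Without replicate 1 of M14 none of the 13 passed from M7 to M14 or from M3 to M14, and their medians were 1.32 and 0.90. Markers of trachea and cuticle summed to 634 to 810 normalized reads in M7 and 872 to 1514 in M14, with 3 of 5 genes rising between them (14.7% of all genes, and none without replicate 1 of M14), and their part in the ZP counts was not tested.

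Of 20 other genes tested in the RhoGAP list, 1 was higher in males at 3 days (8.34% of all genes). It was tum, which is needed for cytokinesis (−3.41, SE 0.86, limma adjusted p = 0.029). None passed at 7 or 14 days. The list includes rn (rotund), a zinc-finger gene that is not a RhoGAP, which had no unadjusted p under 0.05 in any comparison given here. At an unadjusted p under 0.05, 1 of the 20 was higher in females at 3 days (7.36% of all genes) and 2 were higher in males (15.9%). By that measure 3 were higher in females at 7 days (4.43%) and 1 higher in males at 14 days (2.69%). From M3 to M14, where RhoGAP1A fell, 1 of the 20 rose (6.09% of all genes), RhoGAP15B (1.45, SE 0.46, limma adjusted p = 0.090), and none fell. From M7 to M14 4 rose (14.7% of all genes) and 1 fell, RhoGAP93B, which acts in axon guidance (−0.76, SE 0.26, limma adjusted p = 0.081). RhoGAP18B rose there by 1.14 (SE 0.33, limma adjusted p = 0.076). None of the 20 passed in either comparison without replicate 1 of M14. From F3 to F14 3 rose (17.1% of all genes), tum, RhoGAP15B and RhoGAP54D, and none fell, and RhoGAP1A differed by −0.31 (SE 0.40, limma adjusted p = 0.63).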

How the data were processed

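RNA was extracted from pools of 100 brains, and single-end libraries were made with a kit that does not mark strand. According to the submitters' processing notes and the study's methods, reads were trimmed with Trimmomatic (0.39), cleared of ribosomal RNA, mapped with STAR (2.7.3a) and normalized per gene in DESeq2 (2.10, in R 2.14.1). The counter is not given in the sources used here. The deposited signal values are the authors' DESeq2-normalized reads of 13439 genes in 16 of 18 labelled samples. Replicate 3 of F7 and replicate 1 of F14, removed by the authors as outliers, were not analysed here. Dividing each library's values by 1 factor gave whole reads for 100% of values within 1e-06, and these recovered reads (2924715 to 8664494 per library) served the count alternatives. Reads are not counted by molecule, so replicate spread was used rather than counting error.

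Of the genes, 13438 were placed by locus tag or synonym on release 6. Values were analysed as log2(value + 1) in limma 3.58.1 (R 4.3.3) with a variance trend. This covered 12448 genes whose mean was 5 or more, and all 6 groups entered 1 linear model. Fold changes are on the log2(value + 1) scale, which understates the change of low genes. Adjusted p values follow Benjamini and Hochberg over all genes tested, with a threshold of 0.1. Correlations were tested by exact enumeration of pairings, over the 7 female and 9 male libraries rather than the 8 per sex first planned. In the text, named genes are the 4 members, the nearest genes with values on each side and neighbours past the threshold between sexes, the 4 genes most like each member, and up to 4 family genes past the threshold per comparison, smallest p first. Among family genes the text gives examples from these. Cyp4d2 was named after its values were seen.

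The 4 genes, the marker and family lists and the tests were chosen with earlier results of these data known. The alternatives included edgeR 4.0.16 and DESeq2 1.42.0 on recovered reads, other pseudocounts and filters, quantile normalization, array weights, only the groups compared, a replicate block, other thresholds and neighbour numbers, each library left out, and scaling to each library's total reads, the last chosen after seeing the data. Counts of list members without replicate 1 of M14 were also added after seeing the data. The planned interaction of sex and age was kept as a value without a test, since it is built from the sex differences that chose the genes. The limma step was also tested on simulated data. The other software was Python 3.11.15, numpy 2.4.6, pandas 2.3.3, matplotlib 3.10.9 and scipy 1.17.1. No sequence was analysed here.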

Additional observations from a re-analysis of the deposited data

How the results depend on the processing

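Of the sex differences, quantile normalization moved that of CG34227 to −0.45 at 3 days and −6.04 at 14 days. Without replicate 2 of F7 and replicate 1 of M14 together, the differences were −1.83 for tyn and −1.41 for CG17707 at 7 days and −0.40 for RhoGAP1A at 14 days. With single libraries left out, these ran from −1.83 to −0.49 (tyn, 7 days), from −1.41 to 0.10 (CG17707, 7 days) and from −0.40 to 0.40 (RhoGAP1A, 14 days). For CG17707 from M3 to M14, quantile normalization gave a call (limma adjusted p = 0.097).

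Male age calls among the 4 genes, 3 in limma, were 1 with edgeR, array weights, both libraries left out or an adjusted p of 0.05, 5 at an unadjusted p of 0.05, and 1 to 4 with single libraries left out. With the replicate number as a block, the count was 1, and CG34227 from M7 to M14 (limma adjusted p = 0.103) and RhoGAP1A from M3 to M14 (limma adjusted p = 0.103) were lost. Same-numbered libraries did not deviate together (median correlation −0.05 over 35 pairs, 0.01 over the 71 others). The numbers thus gave no sign of pairing, but correlations of −0.62 to 0.43 among those 35 pairs are too spread to exclude it. Female calls, 0 in limma, were 1 with array weights and 0 to 1 with single libraries left out.

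On 2R, male-higher neighbours at 3 days, 2 in limma, were 1 with pseudocount 5, a mean of at least 20, quantile normalization, only the groups compared or scaling to total reads, 0 among the 5 nearest genes on each side, and 1 to 2 with single libraries left out. Female-higher neighbours there, 0 in limma, were 1 with array weights, both libraries left out or the 20 nearest genes, and 0 to 1 with single libraries left out. At the X end, female-higher neighbours at 3 days, 0 in limma, were 1 with DESeq2 or only the groups compared, 2 with array weights, both libraries left out or an unadjusted p of 0.05, and 0 to 1 with single libraries left out. At an unadjusted p of 0.05, female-higher neighbours at 7 days were 1 on 2R and 1 at the X end, and at 14 days 1 at the X end. The correlation of CG34227 and tyn in males changed sign, from negative to 0.060, once the age means were removed.

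The cause of these shifts was not tested. Few libraries per group and 7 to 39 reads of CG34227 in females limit the precision.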
